A study of Drosophila melanogaster with 84 samples.

Results

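The dawn transition was examined in 28 of the 84 libraries of the series, those collected at 2 h and at 22 h of the day. They were chosen by the time in their titles, ZT02 against ZT22 in a light-dark cycle (LD) and CT02 against CT22 in constant darkness (DD). Of 2687 wells, 1525 passed the limits on genes, UMIs and entropy, out of 4595 such wells in all 84 libraries. ZT (zeitgeber time) counts hours from lights-on and CT (circadian time) counts the same hours without light, so that lights-on falls between ZT22 and ZT02, and only the clock marks the hour between CT22 and CT02.

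In the study, single neurons were sorted from adult *Drosophila melanogaster* brains at 6 times of day in LD and in DD and sequenced with CEL-Seq2, which counts each mRNA molecule once through a unique molecular identifier (UMI). All flies carried *Clk856-Gal4* driving EGFP, were males and females in equal numbers, and had been reared in LD. The LD groups, ZT02 with 388 wells of 6 libraries and ZT22 with 382 wells of 6 libraries, were entrained in LD before dissection. The DD groups, CT02 with 328 wells of 8 libraries and CT22 with 427 wells of 8 libraries, spent 3 days in darkness (labelled DD3). The driver marks most clock neurons, only some of the DN3 cells, and a few cells outside the clock network, and the age of the sorted flies beyond adult was not given in the sources used here. Each value below sums over a mixture of cell types, so that fewer cells of a type and less RNA per cell cannot be told apart.

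The *Drosophila* clock is a feedback loop in which CLOCK (CLK) and CYCLE (CYC) activate *period* (*per*), *timeless* (*tim*), *vrille* (*vri*), *Par-domain protein 1* (*Pdp1*) and *clockwork orange* (*cwo*). PER and TIM then return to the nucleus and inhibit CLK and CYC until they are degraded. Light speeds the loss of TIM through the photoreceptor CRYPTOCHROME (CRY), and around dawn transcripts of the CLK targets are known to be low and that of *Clk* to be high.

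Libraries that carry the same date number in their titles were summed into a batch, and the batches were the replicates. A batch is named by its group and number, as in the titles: ZT02_20181231 and ZT02_20190309, against ZT22_20190219, ZT22_20190228 and ZT22_20190309, and CT02_20190528 and CT02_20190702, against CT22_20190613 and CT22_20190704. What the number stands for is not given. The study states 2 replicates for each condition and time point, whereas ZT22 has 3 numbers, and how numbers map to those replicates is not given. Only ZT02_20190309 and ZT22_20190309 share a number across a contrast, and LD and DD share none, so that light and batch cannot be told apart where the LD change is set against the DD change. Kept libraries held 24 to 83 wells, and batches held 557855 to 4784444 UMIs. Levels are given as UMIs per 10000 UMIs (TP10K), and a count of 0 in a batch allows a level of up to 0.00627 to 0.0538 TP10K (a limit of 3 UMIs, for counting error only).

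Some libraries stood apart. The 4 libraries of CT02_20190528 had *tim* levels of 3.495 to 6.71 TP10K, whereas the 4 of CT02_20190702 had 0.604 to 1.29 TP10K, and the 8 CT22 libraries had 2.62 to 9.53 TP10K. These batches also differed in depth, with medians of 20280 and 9555 UMIs per well, and the DD levels of the genes below are mostly given by batch. ZT22_20190228, a single library of 50 wells, had the lowest median depth, with 9032 UMIs per well, and CT02_20190702 came next. The lowest depth thus lay at 22 h in LD and at 2 h in DD. Its part in the 2 changes was not tested beyond a fit with wells thinned to 6000 UMIs, given below. ZT22_20190228 had a summed level of 35.9 TP10K for 4 genes used by all neurons, against 51.5 to 64.1 TP10K in the other 8 batches. It also had 133.5 TP10K of *Hk*, a potassium channel subunit gene, against at most 28.1 TP10K in any other batch. In the library AR01 of ZT22_20190309, the fat body markers *Yp1* and *Lsp2* summed to 9.06 TP10K, against at most 0.066 TP10K in any ZT02, CT02 or CT22 library. In the same library 4 photoreceptor markers summed to 3.33 TP10K and 3 glial markers to 5.92 TP10K, against medians of 0.05 and 0.426 TP10K over the 6 ZT22 libraries. The neuronal markers *elav* and *nSyb* were present in every batch, with 4.43 to 7.92 and 15.8 to 26.4 TP10K. The part that these libraries play in the results was not tested beyond the values without them.

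No gene passed the test over dawn in either condition. By the quasi-likelihood test of edgeR with Benjamini-Hochberg adjustment over 10616 genes, 0 genes (0.0%) were called at ZT02 against ZT22, 0 genes (0.0%) at CT02 against CT22, and 0 genes (0.0%) in the difference of these changes. At an unadjusted p under 0.05 there were 502 genes (4.73%) in LD, with 1.29% of all genes higher and 3.44% lower in ZT02. In DD there were 736 genes (6.93%), with 5.82% higher and 1.11% lower in CT02. In the difference there were 1023 genes (9.64%), with 1.9% higher and 7.73% lower in LD. DESeq2 called 39, 10 and 20 genes in the same order, 33 of the 39 lower in ZT02, 10 of 10 higher in CT02 and 19 of 20 with a lower LD than DD change. The 10 DD calls had fitted log2 differences of 10.2 to 25.4, and *rost* among them reached only 0.0179 TP10K. In the difference, *CR43753* had -34.4 with at most 0.0179 TP10K. Values of this size come with a group at or near 0 and depend on the model. Over the 1498 genes that averaged 1 TP10K or more (pseudocount 0.1), the median absolute log2 difference between batches of the same group was 0.26 to 0.86. Without ZT22_20190228 it was 0.26 to 0.42. It was 0.37 between the means of ZT02 and ZT22 and 0.26 between those of CT02 and CT22, where means vary less than single batches. Between the single batches ZT02_20190309 and ZT22_20190309 it was 0.26. As no gene passed in edgeR, the values below are described by direction and size. Among all 12 steps of 4 h, only the step to ZT14 from ZT10 had calls in edgeR (14 genes, all higher in ZT14).

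Among the core clock genes, *tim* and *vri* had the largest LD differences. *tim* (FBgn0014396, dm6 chromosome 2L, 3493986 to 3508119, minus strand), whose protein is the light-sensitive partner of PER, had 0.865 and 1.34 TP10K in the ZT02 batches, against 5.78, 2.56 and 6.20 TP10K in the ZT22 batches. Its libraries ranged over 0.566, 1.02 and 1.41 TP10K in ZT02 (lowest, median and highest of 6) and over 2.56, 5.79 and 6.47 TP10K in ZT22. All 6 ZT02 libraries were below all 6 ZT22 libraries. The log2 difference was -2.07 ± 0.622 (SE), with an unadjusted p of 0.00321 and an adjusted p of 0.929 in edgeR, and *tim* was 21st of 10616 genes by p. DESeq2 gave it an adjusted p of 0.0486, and over all alternatives the adjusted p lay between 0.000453 and 1. The lowest came with each library as a unit, which treats libraries of 1 batch as independent. Apart from that fit and DESeq2, no alternative called *tim* in LD.

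*vri* (FBgn0016076, chromosome 2L, 5288944 to 5311223, plus strand), a repressor of *Clk* transcription, had 0.52 and 0.636 TP10K in the ZT02 batches, against 1.32, 1.47 and 2.06 TP10K in the ZT22 batches. The 6 ZT02 libraries lay between 0.303 and 0.736 TP10K with a median of 0.575, and the 6 ZT22 libraries between 1.08 and 2.29 TP10K with a median of 1.64. The libraries did not overlap, and the log2 difference was -1.46 ± 0.533 (SE, edgeR, adjusted p = 0.929). *Pdp1* (FBgn0016694, chromosome 3L, 7811458 to 7867369, minus strand), an activator of *Clk*, had 31.6 and 37.9 TP10K in ZT02, against 56.6, 41.8 and 72.2 TP10K in ZT22. Its batches did not overlap, but the highest ZT02 library (42.8 TP10K) exceeded the lowest ZT22 library (41.8 TP10K), and the log2 difference was -0.67 ± 0.324 (SE, edgeR, adjusted p = 0.929), or -0.44 without ZT22_20190309.

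In darkness, the same 3 genes depended on the CT02 batch. *tim* had 5.58 and 0.904 TP10K in CT02, against 5.72 and 4.30 TP10K in CT22. All 4 libraries of CT02_20190702 were below all 8 CT22 libraries, whereas those of CT02_20190528 overlapped them. The log2 difference was -0.76 ± 0.632 (SE, edgeR, adjusted p = 0.863). Leaving out a CT02 batch leaves 1 batch in that group, which is then assumed to vary as the batches of the other groups do. Without CT02_20190528 it was -2.53 ± 0.735 (SE, edgeR, unadjusted p = 0.00247, adjusted p = 1), and without CT02_20190702 it was 0.0027 ± 0.653. Over all alternatives the adjusted p was 0.163 to 1. *vri* had 1.97 and 0.272 TP10K in CT02, against 1.78 and 1.06 TP10K in CT22, a log2 difference of -0.47 ± 0.554 (SE, edgeR, adjusted p = 0.923) that was -2.44 without CT02_20190528 and 0.32 without CT02_20190702. *Pdp1* had 43.9 and 20.6 TP10K in CT02, against 53.0 and 48.5 TP10K in CT22, a log2 difference of -0.76 ± 0.35 (SE, edgeR, adjusted p = 0.715) that was -1.35 without CT02_20190528 and -0.35 without CT02_20190702.

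**Figure D1:**
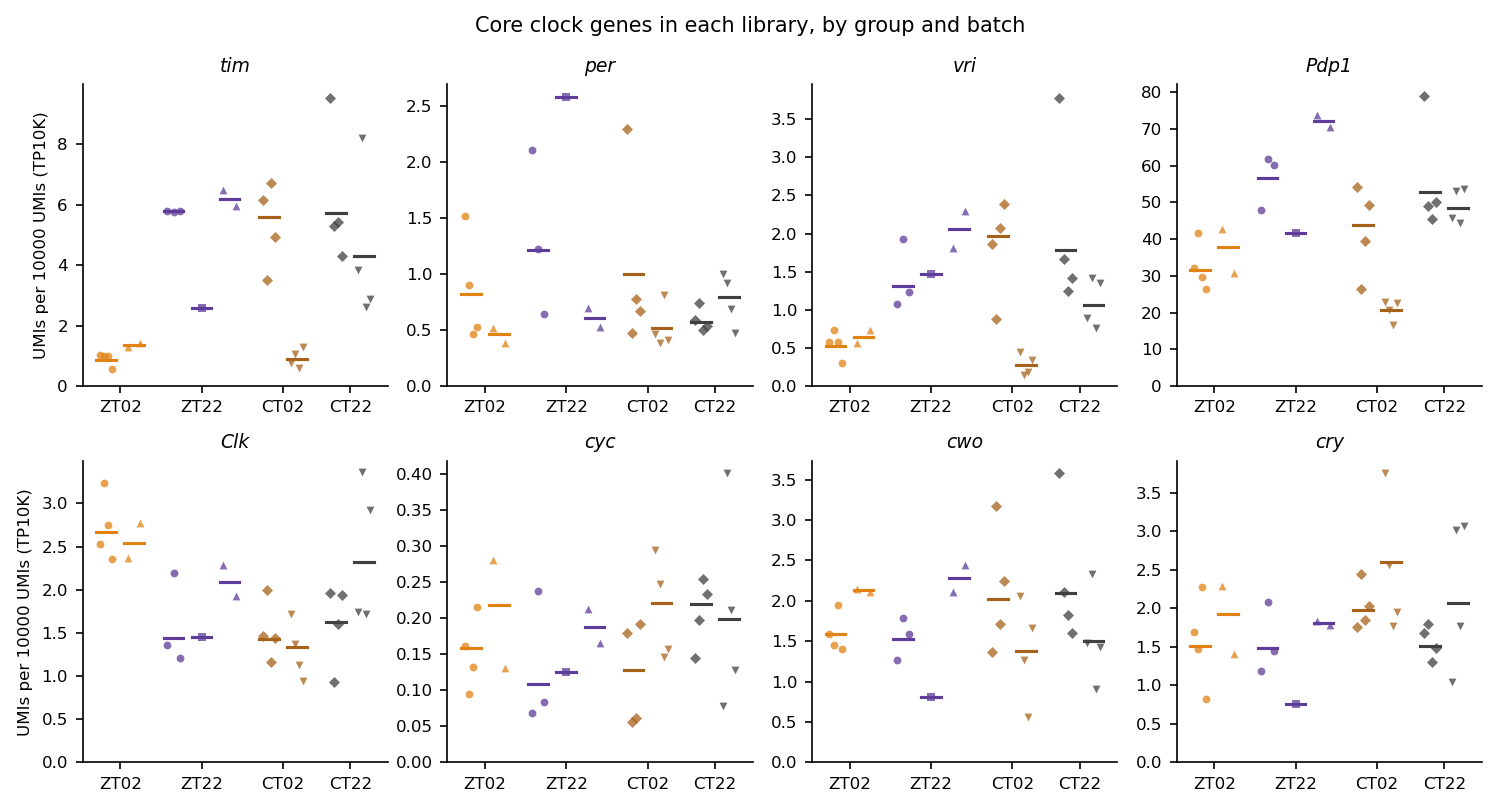
UMIs per 10000 UMIs (TP10K, vertical axes from 0) of the 8 core clock genes in each library of ZT02, ZT22, CT02 and CT22. Points are libraries, each shape within a group is a batch (in date order from left), and horizontal lines are the levels of the summed batches. For *tim*, the 6 ZT02 libraries reach 1.41 TP10K and the 6 ZT22 libraries start at 2.56 TP10K, while the left CT02 batch (5.58 TP10K) and the right one (0.904 TP10K) lie apart.

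The other core clock genes had smaller or less even differences. *Clk* (FBgn0023076, chromosome 3L, 7763233 to 7775603, minus strand), the activator of the loop, had 2.67 and 2.54 TP10K in ZT02, against 1.45, 1.45 and 2.09 TP10K in ZT22. The lowest ZT02 library (2.36 TP10K) was above the highest ZT22 library (2.28 TP10K), and the log2 difference was 0.66 ± 0.405 (SE, edgeR, adjusted p = 0.929). In DD it had 1.43 and 1.34 TP10K in CT02, against 1.63 and 2.32 TP10K in CT22, with overlapping libraries and a log2 difference of -0.60 ± 0.45 (SE, edgeR, adjusted p = 0.849), or -0.39 without CT22_20190704. The LD minus DD difference of *Clk* was 1.26 ± 0.606 on the log2 scale (edgeR, unadjusted p = 0.0505, adjusted p = 0.515).

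*per* (FBgn0003068, chromosome X, 2685580 to 2692780, plus strand), the partner of *tim*, had 0.822 and 0.462 TP10K in ZT02, against 1.22, 2.58 and 0.604 TP10K in ZT22. The highest ZT22 value belongs to ZT22_20190228, and the log2 difference was -1.22 ± 0.733 (SE, edgeR, adjusted p = 0.929), or -0.43 without that batch. In CT02 *per* had 1.002 and 0.514 TP10K, against 0.573 and 0.794 TP10K in CT22, a log2 difference of 0.05 ± 0.77 (SE, edgeR).

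*cyc*, which encodes the partner of CLK, had 0.158 and 0.219 TP10K in ZT02, against 0.108, 0.126 and 0.188 TP10K in ZT22. *cwo*, a repressor of CLK targets, averaged 1.86 ± 0.381 TP10K in ZT02 (SD, n = 2) and 1.54 ± 0.738 TP10K in ZT22 (SD, n = 3). *cry* averaged 1.72 ± 0.292 TP10K in ZT02 (SD, n = 2) and 1.35 ± 0.541 TP10K in ZT22 (SD, n = 3). For *cyc*, *cwo* and *cry* the batches overlapped in LD and in DD, and the log2 differences lay between 0.32 and 0.45 in LD and between -0.35 and 0.27 in DD. Of the 8 core clock genes, 3 had no overlap of libraries in LD (*tim*, *vri* and *Clk*) and 0 in DD, where 0.829% and 0.867% of the 10616 genes had none (in LD 0.443% higher and 0.386% lower). Batches did not overlap for 4 of the 8 in LD, *tim*, *vri* and *Pdp1* lower and *Clk* higher in ZT02, and for 2 of the 8 in DD, *Pdp1* and *Clk*, both lower in CT02. Over all genes this held for 16.6% in LD (9.5% higher, 7.11% lower) and 36.8% in DD (15.4% lower). At an unadjusted p under 0.05 in edgeR, the core genes counted *tim* and *vri* in LD and *Pdp1* in DD.

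The LD and DD changes of the core genes were then set against each other. The LD minus DD difference was -1.31 ± 0.861 for *tim*, -0.99 ± 0.755 for *vri*, -1.28 ± 1.05 for *per* and 0.09 ± 0.471 for *Pdp1* on the log2 scale (SE, edgeR, adjusted p from 0.607 to 0.972). Without CT02_20190528 the difference was 0.47 for *tim* and 0.9995 for *vri*, so that the sign of both rested on that batch. A larger change of these genes over lights-on than over the same hours in darkness was therefore not shown. For *cyc*, *cwo* and *cry* the LD minus DD difference was 0.80, 0.50 and 0.12 on the log2 scale, each below its SE (0.822, 0.574 and 0.686). Over all 10616 genes the LD and the DD change, which have no sample in common, had the same sign in 38.1%, with a Pearson r of -0.26 and a Spearman rho of -0.29 across genes, which share batches and are not independent. Over the 1498 genes that averaged 1 TP10K or more, Pearson r was -0.12 and Spearman rho -0.20.

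ZT02_20190309 and ZT22_20190309, with 2 libraries each, could be compared without a change of number. *tim* had 1.34 TP10K in ZT02 and 6.20 TP10K in ZT22, a ratio of 0.217. The ratio was 0.308 for *vri*, 0.524 for *Pdp1*, 0.764 for *per* and 1.21 for *Clk*. These are single batches of each group, with no test. For DD no number holds both groups.

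The other time points place these levels in the daily course. *tim* averaged 1.10 ± 0.338 TP10K in ZT02 (SD, n = 2), the lowest of the LD groups, and 22.2 ± 3.84 TP10K in ZT14 (SD, n = 2), the highest. The 5.58 TP10K of CT02_20190528 lay within the range of 3.92 to 7.69 TP10K over the 3 CT06 batches, as well as between the CT22 batches. *vri* likewise had its lowest LD mean in ZT02, with 0.578 ± 0.0817 TP10K (SD, n = 2). *Clk* had its highest LD mean in ZT02, with 2.60 ± 0.095 TP10K (SD, n = 2), and its highest DD mean in CT22, with 1.97 ± 0.492 TP10K (SD, n = 2).

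To ask whether the change was shared by cell types, wells were gated by 1 identity gene each. *Pdf*, the peptide of the ventral lateral neurons, defined 108 wells (at least 100 TP10K), *ITP* 46 (100), *Trissin* 50 (30) and *CCHa1* 71 (10), while 1249 wells fell in no gate and 1 in more than 1 gate. Gates on *AstC* (202 wells, at least 20 TP10K) and *Vmat* (144 wells, at least 50 TP10K), drawn from the wells of no gate, were chosen after values were seen, as 2 of 8 that were looked at. A batch was used only with at least 3 wells in a gate, and the gates have no test.

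In *Pdf* wells *tim* had 1.12 and 2.27 TP10K in ZT02, against 12.5 and 11.3 TP10K in 2 ZT22 batches. The same wells had 5.99 and 2.71 TP10K in CT02, against 22.9 and 7.26 TP10K in CT22, so that both CT02 batches were below both CT22 batches. Wells with *Trissin*, a peptide gene known from dorsal lateral neurons, had 0.368 TP10K in the 1 ZT02 batch with enough wells, against 9.01, 5.75 and 6.40 TP10K in ZT22. In DD they had 1.96 and 0.313 TP10K in CT02, against 17.7 and 8.65 TP10K in CT22, again without overlap. The values of 0.368 and 0.313 TP10K rest on 6 and 2 UMIs.

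Wells with *ITP*, a peptide gene known from evening neurons, had 0.687 TP10K of *tim* in ZT02, against 5.68 and 7.03 TP10K in ZT22. In DD they had 3.21 and 1.56 TP10K in CT02, against 6.39 and 3.19 TP10K in CT22, where the batches met. *CCHa1* wells had 2.34 and 3.67 TP10K in ZT02, against 9.45, 13.1 and 9.75 TP10K in ZT22. In DD they had 10.7 and 3.23 TP10K in CT02, against 11.2 and 9.42 TP10K in CT22, with overlap. In *AstC* wells *tim* had 1.81 and 1.36 TP10K in ZT02, against 10.02, 3.98 and 8.19 TP10K in ZT22, and 6.08 and 1.17 TP10K in CT02, against 8.98 and 9.33 TP10K in CT22.

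The wells of no gate also had the high level of CT02_20190528, with 5.94 and 0.729 TP10K of *tim* in CT02, against 3.82 and 3.67 TP10K in CT22, and 0.787 and 0.961 TP10K in ZT02, against 4.75, 1.17 and 4.57 TP10K in ZT22. Wells with *Vmat*, the vesicular monoamine transporter gene, had 0.172 and 0.146 TP10K of *tim* in ZT02, against 1.76, 0.0 and 1.599 TP10K in ZT22, and 2.35 and 0.269 TP10K in CT02, against 0.72 and 0.567 TP10K in CT22. In the *Pdf*, *Trissin* and *AstC* gates both CT02 batches were below both CT22 batches, whereas in the *ITP*, *CCHa1* and *Vmat* gates and outside the planned gates the CT02 batches reached or exceeded the lower CT22 batch. In the sums over all wells, 15.4% of all genes had both CT02 batches below both CT22 batches.

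*Clk* was read in the same gates. *Pdf* wells had 4.06 and 4.99 TP10K in ZT02, against 1.47 and 2.17 TP10K in ZT22, and *CCHa1* wells had 5.31 and 4.25 TP10K in ZT02, against 2.10, 0.0 and 2.09 TP10K in ZT22. *ITP* and *Trissin* wells, with 3.95 and 2.45 TP10K in ZT02, lay within the ranges of 2.42 to 4.89 and 1.66 to 3.34 TP10K in ZT22. *AstC* wells had 4.85 and 3.39 TP10K in ZT02, against 2.79, 4.22 and 3.84 TP10K in ZT22, with overlap, and the wells of no gate had 2.35 and 1.91 TP10K in ZT02, against 1.31, 1.24 and 1.85 TP10K in ZT22. The ZT22 values of 0.0 come from 3 wells each, in which a count of 0 allows up to 1.16 TP10K of *Clk* (*CCHa1* wells) and 0.587 TP10K of *tim* (*Vmat* wells).

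In DD, *Clk* was not lower in CT02 in every gate. *Trissin* wells had 1.44 and 2.35 TP10K in CT02, against 0.11 and 0.567 TP10K in CT22, where the CT22 values rest on 1 and 4 UMIs. *ITP* wells had 1.12 and 1.44 TP10K in CT02, against 1.07 and 0.892 TP10K in CT22. The *ITP* values rest on 23 and 12 UMIs in CT02 and on 20 and 7 UMIs in CT22. In both of these gates the CT02 batches were above the CT22 batches, whereas the sum over all wells was lower in CT02. In the sums over all wells, 21.3% of all genes had both CT02 batches above both CT22 batches, and 15.4% had both below. *Pdf* wells had 2.34 and 3.47 TP10K in CT02, against 1.22 and 3.53 TP10K in CT22. *CCHa1* wells had 2.77 and 4.04 TP10K in CT02, against 3.996 and 2.52 TP10K in CT22. *AstC* wells had 2.45 and 3.24 TP10K in CT02, against 1.85 and 6.34 TP10K in CT22. These 3 gates overlapped, and the wells of no gate did not, with 1.29 and 1.09 TP10K in CT02, against 1.59 and 2.29 TP10K in CT22. *Vmat* wells had little *Clk*, with 0.773 and 0.207 TP10K in CT02, against 0.0133 and 0.295 TP10K in CT22.

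**Figure D2:**
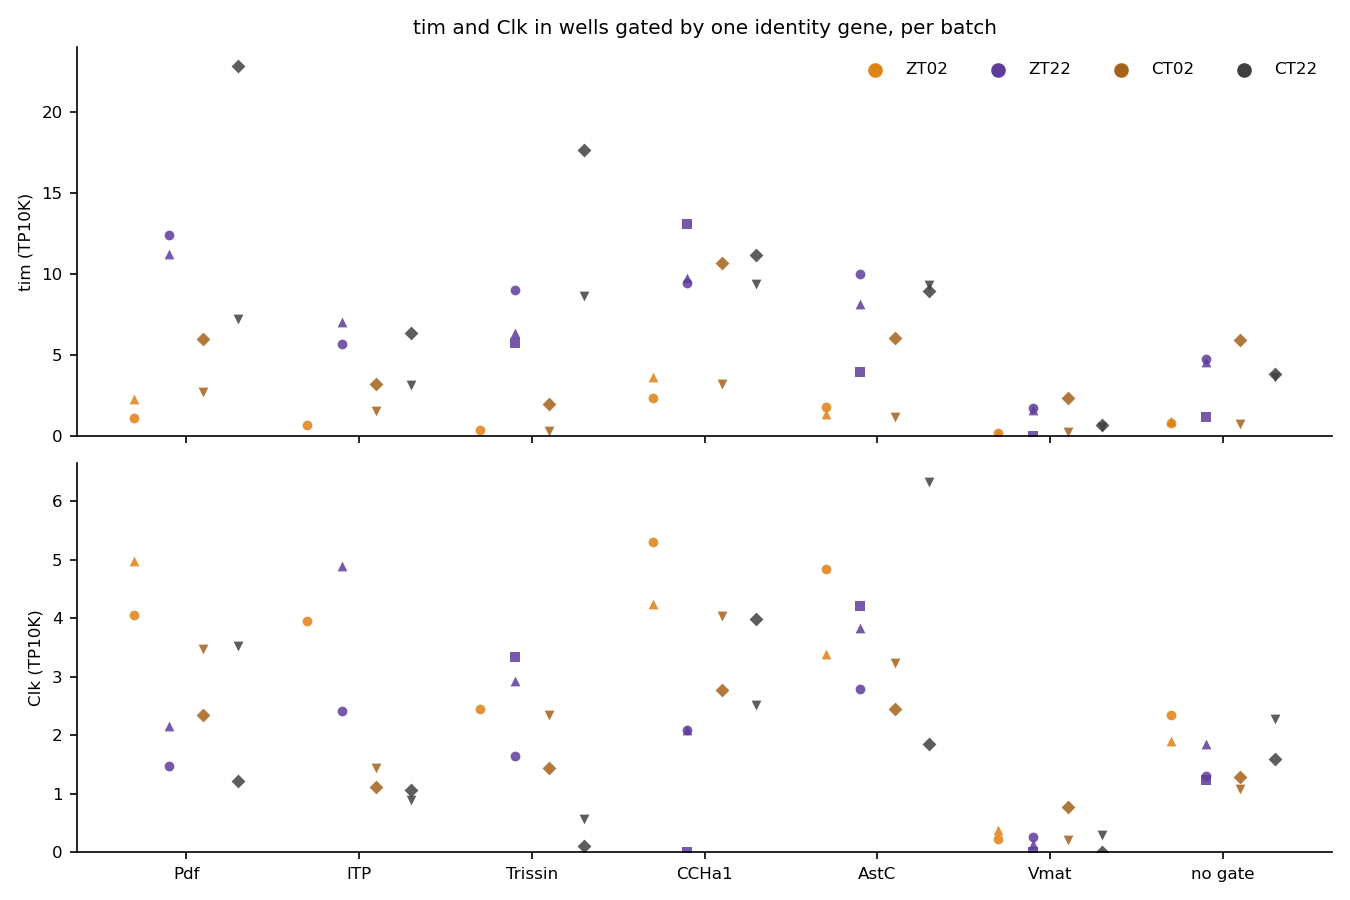
*tim* (upper) and *Clk* (lower) in TP10K, by identity gate, with a point per batch that has at least 3 wells in the gate, coloured by group and shaped by batch as in the plot of the core clock genes. In *Pdf* and *Trissin* wells every ZT02 and CT02 *tim* value is below the ZT22 and CT22 values of the same light condition, while among the wells of no gate the highest *tim* value (5.94 TP10K) belongs to a CT02 batch.

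Beyond the core loop, members of 13 further lists were read in the same fit. edgeR called no gene of any list, and DESeq2 called 2 list members, *tim* and *Pka-C1*, both in LD. Clock protein modifiers, here the kinases, phosphatases and degradation factors that act on clock proteins together with *tyf* and *Atx2*, which promote the translation of *per* mRNA, had positive log2 values in 13 of 13 members in LD, with a median of 0.37, beside a median of -0.05 over all 10616 genes. They had positive values in 2 of 13 in DD, with a median of -0.21, beside 0.08 over all genes. With the library size alone, 12 and 6 of 13 were positive, and with DESeq2 11 and 6, as these scalings move the median of all genes to -0.08 and 0.17, and to -0.18 and 0.20. Against the median of all genes, 13 of 13 lay above it in LD and 1 of 13 in DD under TMM, the library size and DESeq2. The LD median was 0.25 without ZT22_20190228 (11 of 13 positive) and 0.19 without ZT02_20190309 (9 of 13), and in DD without CT02_20190528 the median was -0.15 (6 of 13). *jet*, which encodes an F-box protein for the light-driven loss of TIM, had a log2 difference of 0.78 in LD and -0.52 in DD, the most positive and the most negative of the list. Opposite signs in LD and DD were not particular to this list, as 38.1% of all 10616 genes had the same sign in both. No median over genes of a like level was taken.

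Chaperone genes had positive log2 values in 9 of 9 in LD (median 0.46) and in 7 of 9 in DD (median 0.16), under the library size and under DESeq2 too. In DD 5 of 9 were positive without CT02_20190702 and 4 of 9 without CT22_20190704. The small heat shock gene *Hsp27* had 3.15 and 3.96 TP10K in ZT02, against 1.76, 1.56 and 2.93 TP10K in ZT22, a log2 difference of 0.80 ± 0.328 (SE, edgeR, unadjusted p = 0.0237, adjusted p = 0.929). The batches did not overlap, as for 9.5% of all genes that were higher in ZT02. In DD it had 1.84 and 1.68 TP10K in CT02, against 1.62 and 1.35 TP10K in CT22.

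The 4 measured ion transport genes, *Nhe2*, *Atpalpha*, *nrv3* and *kcc*, had log2 differences of 0.30 to 0.65 in LD and of -0.61 to -0.20 in DD, with the same signs under the library size and DESeq2. Without CT22_20190613, 1 of the 4 was positive in DD. Ribosomal protein genes had negative values in 62 of 82 in LD and in 60 of 82 in DD, with medians of -0.11 and -0.12, and under DESeq2 in 73 and 41 and under the library size in 65 and 44. Of 20 mitochondrial genes, 16 were positive in LD and 7 in DD (14 and 8 under DESeq2). None of these shares was tested, and all members of a list come from the same 9 batches. They stand beside the 38.1% of all genes with the same sign in LD and DD.

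Activity-regulated genes, which respond to neuronal firing, gave no common direction. *Hr38*, a nuclear receptor gene, had 0.839 and 0.537 TP10K in ZT02, against 0.958, 0.233 and 1.24 TP10K in ZT22, and 0.504 and 0.236 TP10K in CT02, against 0.18 and 0.205 TP10K in CT22. *sr*, which encodes a zinc finger factor, had 1.65 and 1.47 TP10K in ZT02, against 1.25, 1.99 and 2.55 TP10K in ZT22. In DD it had 0.47 and 1.002 TP10K in CT02, against 1.22 and 1.38 TP10K in CT22. The *Hr38* batches were thus higher and the *sr* batches lower in CT02, neither with overlap. Over all genes, batches without overlap were higher in 21.3% and lower in 15.4% in DD, and the libraries of both genes overlapped. The medians of the 10 genes were 0.16 in LD and -0.09 in DD.

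Of the peptide and signalling genes, those named here were chosen after their values were seen, for an unadjusted p under 0.05 in LD or DD. *AstA*, the gene of allatostatin A, had 2.83 and 5.74 TP10K in ZT02, against 2.55, 0.269 and 0.158 TP10K in ZT22, and 7.43 and 11.8 TP10K in CT02, against 3.16 and 3.25 TP10K in CT22. The log2 differences were 2.26 ± 0.774 in LD and 1.51 ± 0.867 in DD (SE, edgeR, adjusted p of 0.929 and 0.768). Its LD difference was 4.40 without ZT22_20190219 and 1.54 without ZT02_20190309. The *AstA* libraries overlapped in LD and in DD, and those of CT02_20190528 alone ranged from 0.432 to 16.6 TP10K. Within CT22_20190613 the libraries ranged from 1.9 to 24.4 TP10K for *Dh31*. *Dh31*, a diuretic hormone gene of dorsal neurons, had 10.9 and 9.89 TP10K in ZT02, against 5.94, 2.87 and 7.67 TP10K in ZT22, and 10.8 and 7.43 TP10K in CT02, against 10.5 and 14.9 TP10K in CT22.

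*amon*, a prohormone convertase gene, had 8.78 and 9.53 TP10K in ZT02, against 5.09, 4.73 and 5.63 TP10K in ZT22, and 9.42 and 9.42 TP10K in CT02, against 9.23 and 9.28 TP10K in CT22. *svr*, which encodes a carboxypeptidase of peptide processing, had 7.01 and 7.28 TP10K in ZT02, against 3.80, 2.89 and 5.15 TP10K in ZT22. *Pka-C1*, the catalytic subunit of protein kinase A, had 13.0 and 14.6 TP10K in ZT02, against 7.52, 3.91 and 9.62 TP10K in ZT22, a log2 difference of 1.02 ± 0.29 (SE, edgeR, unadjusted p = 0.00203, adjusted p = 0.929). DESeq2 gave it an adjusted p of 0.0265, and over all alternatives the adjusted p lay between 0.000576 and 1. The lowest again came with each library as a unit, which treats libraries of 1 batch as independent. For *amon*, *svr* and *Pka-C1* the LD batches did not overlap, as for 9.5% of all genes that were higher in ZT02. The libraries did not overlap for *amon* (lowest 7.98 TP10K in ZT02, highest 6.36 in ZT22) and *Pka-C1* (10.83 and 10.6), and did for *svr*. Of all genes, 0.443% had no overlap of libraries and were higher in ZT02. The DD log2 differences of *amon*, *svr* and *Pka-C1* were -0.06, 0.12 and 0.11.

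*Pdfr*, the receptor of PDF, had 2.66 and 2.15 TP10K in ZT02, against 5.43, 5.22 and 6.05 TP10K in ZT22, a log2 difference of -1.20 ± 0.488 (SE, edgeR, unadjusted p = 0.0226, adjusted p = 0.929). Its ZT02 libraries reached 3.58 TP10K and its ZT22 libraries started at 4.26 TP10K. Of all genes, 0.386% had no overlap of libraries and were lower in ZT02. In DD *Pdfr* had 4.86 and 1.55 TP10K in CT02, against 3.29 and 7.81 TP10K in CT22. *Shal*, a potassium channel gene, had 1.41 and 1.37 TP10K in ZT02, against 0.977, 0.789 and 0.968 TP10K in ZT22, and 0.711 and 0.868 TP10K in CT02, against 1.497 and 1.36 TP10K in CT22. Its batches were higher in ZT02 and lower in CT02, as were those of 9.5% of all genes in LD and of 15.4% in DD. Its libraries overlapped in LD. In DD those of CT02 reached 1.106 TP10K and those of CT22 started at 1.143 TP10K, and 0.245% of all genes were lower in CT02 without overlap of libraries. The LD minus DD difference of *Shal* was 1.58 ± 0.511 on the log2 scale (SE, edgeR, adjusted p = 0.508).

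*Rh7*, a rhodopsin gene, had 0.905 and 1.14 TP10K in ZT02, against 0.739, 0.878 and 0.652 TP10K in ZT22, and 0.44 and 0.354 TP10K in CT02, against 1.18 and 0.646 TP10K in CT22, a DD log2 difference of -1.30 that was -0.78 without CT22_20190613. *DIP-beta*, a cell-surface immunoglobulin gene, had 0.527 and 0.246 TP10K in CT02, against 0.97 and 0.767 TP10K in CT22, a log2 difference of -1.27 ± 0.573 (SE, edgeR, adjusted p = 0.715). *CG13055* had 0.677 and 0.18 TP10K in CT02, against 0.0899 and 0.0841 TP10K in CT22, a log2 difference of 2.18 that was 0.99 without CT02_20190528. *beat-Ic*, another cell-surface gene, had a log2 difference of 0.78 in LD and -0.10 in DD, and the LD value was 0.32 without ZT02_20190309. *Irk1*, a potassium channel gene, had 0.131 and 0.129 TP10K in ZT02, against 0.0951, 1.56 and 0.184 TP10K in ZT22, where the high value belongs to ZT22_20190228, and the LD log2 difference of -2.26 was -0.02 without that batch.

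**Figure D3:**
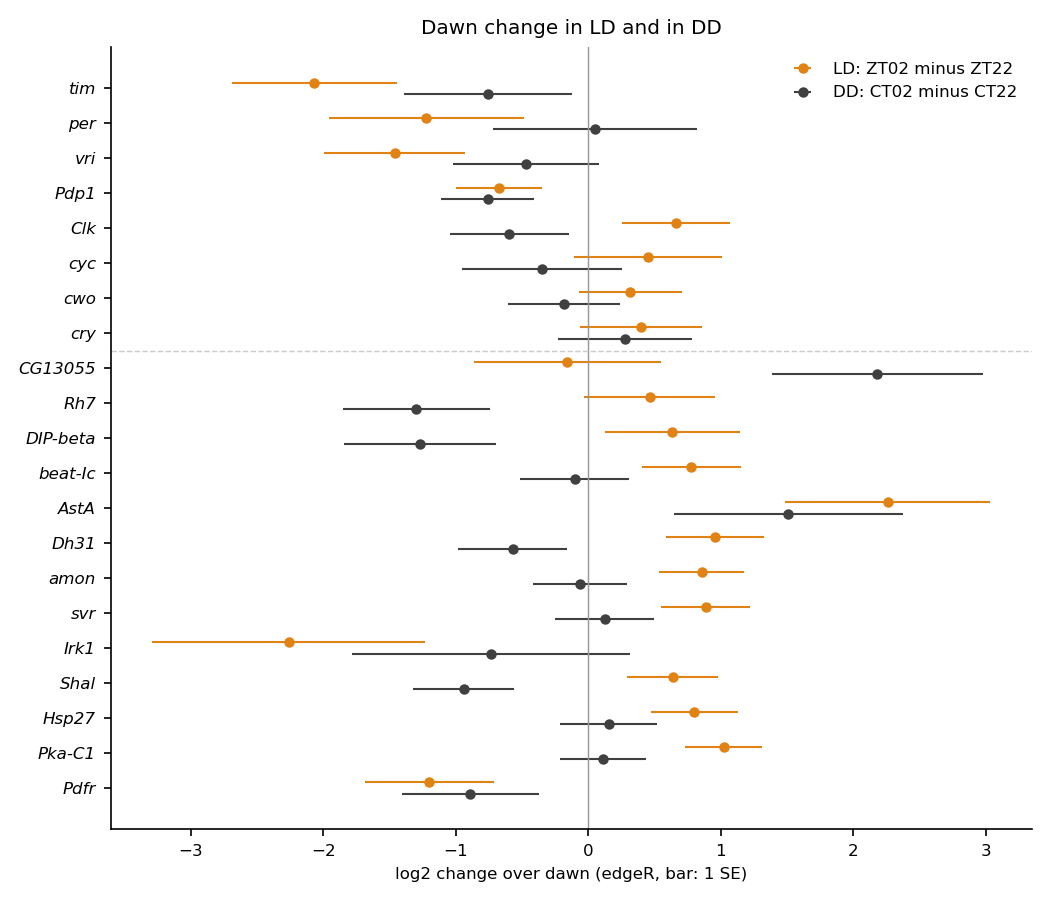
Log2 change over dawn (horizontal axis, edgeR) with 1 SE, in LD (ZT02 minus ZT22) and in DD (CT02 minus CT22), for the 8 core clock genes above the dashed line and, below it, list members with an unadjusted p under 0.05 in LD or DD. None passed the adjusted test, *tim* has the lowest LD value of the core genes (-2.07), and *Clk* and *Shal* have opposite signs in LD and DD.

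**Figure D4:**
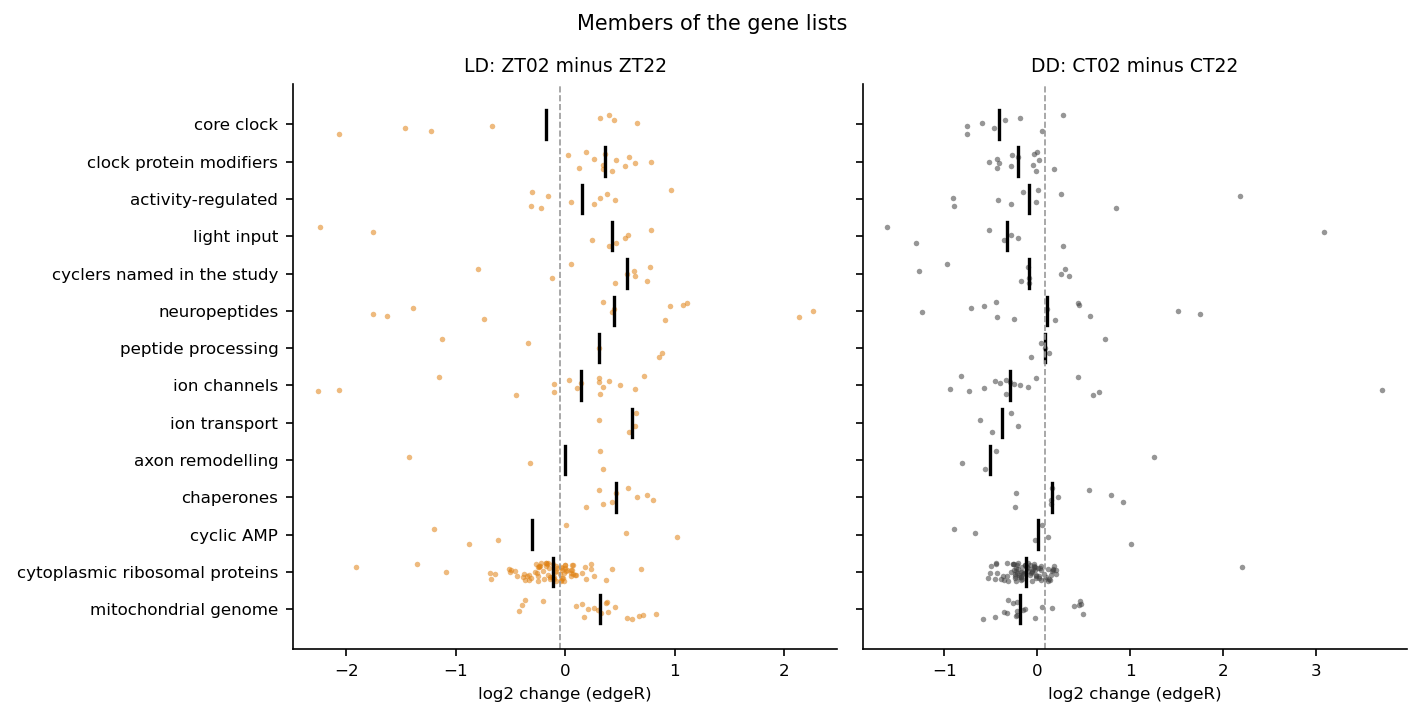
Log2 change (edgeR, horizontal axes of different range) of the tested members of 14 gene lists in LD (left) and DD (right). Points are genes, black bars are list medians, and dashed lines are the median of all 10616 genes (-0.05 in LD and 0.08 in DD). The 13 clock protein modifiers lie to the right of 0 in LD, and 11 of them to the left of it in DD.

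The genes with the smallest p in LD were *Adh* and *PVRAP*, both with an adjusted p of 0.29 in edgeR. *PVRAP*, an adaptor of a receptor tyrosine kinase, had 1.43 and 3.37 TP10K in ZT02, against 0.564, 0.645 and 0.556 TP10K in ZT22. Its libraries did not overlap, as for 0.443% of all genes that were higher in ZT02, and its log2 difference was 2.09 ± 0.414 (SE). In DD it had 1.65 and 1.11 TP10K in CT02, against 1.32 and 1.04 TP10K in CT22. Without ZT02_20190309 the log2 difference was 1.23. Without ZT02_20181231, which leaves 1 ZT02 batch with its spread taken from the other groups, the adjusted p of *PVRAP* was 0.0444 (0.000164 to 1 over all alternatives), and *Tap42* was the other gene called. *PVRAP* was chosen after its values were seen. Its lowest adjusted p came with each library as a unit, which treats libraries of 1 batch as independent. *Adh*, the gene of alcohol dehydrogenase, had 0.0278 and 0.051 TP10K in ZT02, against 0.85, 1.56 and 0.53 TP10K in ZT22, and 0.907 and 0.211 TP10K in CT02, against 0.153 and 0.0976 TP10K in CT22. Within ZT22 its libraries ranged over 0.0273 to 2.49 TP10K.

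The 10 genes with the smallest p of the LD minus DD difference were *Adh*, *CR45264*, *eIF4E-5*, *CG33120*, *CR45280*, *ProtB*, *CG7191*, *Obp19d*, *Mst98Cb* and *up*, with adjusted p from 0.191 to 0.508 in edgeR. Several were at or near 0 in a group. *ProtB*, which encodes a sperm chromatin protein, had 0.0021 and 0.0 TP10K in ZT02, against 1.08, 0.0358 and 0.0 TP10K in ZT22, and 1.03 and 0.318 TP10K in CT02, against 0.0 and 0.0 TP10K in CT22. *Mst98Cb*, a male germline gene, had 2.83 and 0.0103 TP10K in CT02, against 0.0 and 0.0034 TP10K in CT22, and 0.0043 and 0.0 TP10K in ZT02, against 0.672, 0.0 and 0.0 TP10K in ZT22. *eIF4E-5* had 0.381 TP10K and *CR45280* 0.907 TP10K in CT02_20190528, against at most 0.0034 and 0.0042 TP10K in CT22.

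For *CG7191*, 66.2% of 3001 UMIs came from 5 of the 1525 wells, and for *Obp19d*, an odorant-binding protein gene, 84.6% of 130 UMIs came from 5 wells. *up*, the gene of a muscle troponin, had 42 of 310 UMIs in 1 well of the ZT22 library AR01. *CR45264* and *CG33120* rested on 32 and 44 UMIs in all. No fitted change is given for these genes, because a group near 0 makes it depend on the model.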

How the data were processed

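Single wells of CEL-Seq2 libraries were measured. The deposited values are raw counts: for each barcode and gene, the UMIs that the authors obtained from exon alignments to dm6 (STAR, run by zUMIs). Demultiplexing used bcl2fastq 2.20, per the submitters' processing notes, and the annotation release was not given in the sources used here. Spike-in rows (1.65% of the UMIs of kept wells) and EGFP (0.267%) were left out. Limits on a well were 1000 and 6000 for its genes, 6000 and 75000 for its UMIs, and an entropy (natural log) not below 5.5. A gene missing from a library's table counted as 0 there (15801 genes in all). No doublet caller was run.

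UMIs were summed per batch and fitted with edgeR 4.0.16 (R 4.3.3; TMM, filterByExpr, glmQLFit and glmQLFTest) over 28 batches and 12 groups, with 16 residual degrees of freedom. Genes were called at an adjusted p under 0.05. Alternatives included DESeq2 1.42.0, the library as unit and leaving out each batch. The fit was tested on simulated data. Of 35 pairs of libraries of one batch, none agreed within counting noise. No separate flies are stated for batches, so p-values measure the spread between batches, which may be technical. Batches hold 557855 to 4784444 UMIs, and counting error at low levels is larger.

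The members and the lists were chosen with earlier results of these data known, and lists taken from the study are not independent evidence. Named were the 8 core clock genes, called members of each list, called genes, and the 10 genes with the smallest p of the difference; list members and other genes beyond this were chosen after their values were seen. Of 48 genes described, 44 matched a gene of the Ensembl annotation by symbol.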

Additional observations from a re-analysis of the deposited data

Results flagged for a closer look

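Over 12 measures in 4 groups, 48 sets of libraries were checked for a library far from the others, and 6 were found. The limit used gives about 1 in 20 sets only for independent, normally spread values. Libraries nested in batches are not independent, so 6 is not shown to exceed chance. The library AR08 of ZT02_20190309 had a median of 24710 UMIs per well, against 19100 in the next. The library AR012 of ZT22_20190228 had 2.56 TP10K of *tim*, against 5.75 in the next lowest. The library AR05 of CT02_20190528 had 2.29 TP10K of *per*, against 0.812, and the library AR13 of CT02_20190702 had 3.76 TP10K of *cry*, against 2.56. The library AR13 of CT22_20190613 had 3.77 TP10K of *vri*, against 1.67, and 79.0 TP10K of *Pdp1*, against 53.6. The cause was not tested in any of them.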

How the results depend on the processing

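The count of calls was 0 in edgeR in LD, DD and the difference under the library size, no filter, the 9 batches alone, 1000 genes as the only limit, wells thinned to 6000 UMIs and no *Pdf*-rich wells, and under the filters and the left-out library added after seeing the data. DESeq2 called 39 genes in LD, 10 in DD and 20 in the difference. With each library as a unit, which treats libraries of 1 batch as independent, 147, 909 and 997 genes were called. Leaving out each batch gave 0 to 2 calls in LD and 0 to 0 in DD and in the difference. With the number as a replicate block in LD, 0 genes were called (261 at an unadjusted p under 0.05, against 399 without it). Deviations of LD batches of the same number had a Pearson r over 0.1 in 7 of 14 pairs. The r was -0.39 to 0.83 with a median of 0.13, against a median of -0.02 for other pairs. For ZT02_20190309 and ZT22_20190309 it was 0.389. In a group of 2 batches the deviations mirror each other, so these values cannot decide whether the numbers pair the batches. No paired analysis was possible for DD or the difference because CT02 and CT22 share no number.

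Of 990 refits of 49 named log2 values, 931 kept sign and call, 30 passed the test and 29 changed sign. Most that passed came with each library as a unit, which treats libraries of a batch as independent. The rest came under DESeq2 or without ZT02_20181231. In DD, leaving out batches gave -2.53 to 0.002693 for *tim*, -0.4567 to 0.41 for *per* (-0.1506 without CT22_20190613), -2.44 to 0.3194 for *vri*, -0.86 to 0.02517 for *cyc*, -0.46 to 0.1006 for *cwo* (0.01464 without CT02_20190702) and -0.001559 to 0.49 for *cry*. In the difference it gave -1.998 to 0.4738 for *tim*, -1.70 to 0.9995 for *vri*, -0.2421 to 0.70 for *Pdp1* (-0.1092 without ZT02_20190309 and -0.1221 without ZT22_20190228) and -0.1743 to 0.47 for *cry* (-0.07703 without CT02_20190528 and -0.1297 without ZT02_20190309). Under the library size, DESeq2, the library as unit and thinned wells, the difference was -0.06163, -0.2013, -0.03525 and -0.07082 for *Pdp1* and -0.009776, -0.1259, -0.07547 and -0.1965 for *cry*. With only genes of at least 0.8 TP10K in a group, an alternative chosen after seeing the data, it was -0.1397 for *Pdp1* and -0.07924 for *cry*, with and without a robust spread, and without *Pdf*-rich wells it was -0.2804 for *cry*. The cause was not tested. Low genes are limited by depth.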
